A study of Mus musculus with 17 samples.

Results

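Bc1, a short noncoding RNA of neurons, was the most abundant gene in every one of 17 mouse brainstem libraries labelled locus coeruleus, and its level split them into 2 classes. The 10 libraries with at least 220000 TPM of Bc1 were set against the 7 libraries below that level, whatever the treatment. TPM, a relative abundance, divides reads by transcript length and scales each library to the same total. So 10000 TPM is 1% of the summed TPM of a library, which is not 1% of its reads. The classes were chosen from the measured Bc1 level, so Bc1 is described without a test between the classes. The other genes were compared after Bc1 was taken out and each library rescaled to a total of 1000000.

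All libraries came from male C57BL/6 mice, with brainstem tissue, labelled locus coeruleus, taken 24 hours after treatment; the labels give no genotype or age. Of them, 6 were untreated, 5 were from mice given vindeburnol and 6 were from mice given VB-127, a derivative of vindeburnol. Both compounds were dissolved in water and given by oral gavage at 20 mg/kg once daily for 5 days. No group is labelled as given water by gavage, and separate animals are not stated for the libraries, so p-values measure the spread between samples.

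Bc1 is transcribed by RNA polymerase III, is found in rodent neurons and travels into dendrites. It is known as a repressor of translation initiation that works through the initiation factor Eif4a and the poly(A) binding protein Pabpc1. It joins a tRNA-like 5′ domain to an A-rich middle and a unique 3′ end. Its sequence is shown for the A-rich middle, since the libraries were made from poly(A)-selected RNA, per the labels' protocols. It is the GENCODE M21 transcript, 168 bases on the plus strand of GRCm38 at chr7:144914470-144914637, annotated as a long intergenic noncoding RNA. The capitals mark positions 77 to 136 from the 5′ end, a stretch of 60 bases of which 49 are A.
Bc1: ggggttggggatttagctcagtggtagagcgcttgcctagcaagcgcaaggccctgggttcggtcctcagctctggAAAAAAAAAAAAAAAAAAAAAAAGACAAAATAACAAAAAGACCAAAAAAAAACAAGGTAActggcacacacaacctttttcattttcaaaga

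Bc1 in the 6 untreated libraries stood at 252711, 241731, 225024, 352875, 223920 and 175432 TPM in replicates 1 to 6. The 5 vindeburnol libraries held 187174, 161380, 293245, 168764 and 259159 TPM in replicates 1 to 5. The 6 VB-127 libraries held 220947, 288126, 221778, 182957, 167417 and 181121 TPM. Each treatment therefore had libraries on both sides of 220000 TPM: 5 of 6 untreated, 2 of 5 vindeburnol and 3 of 6 VB-127 libraries were high. The libraries next to the threshold were VB-127 replicate 1 at 220947 TPM and vindeburnol replicate 1 at 187174 TPM. The high class averaged 25.8% ± 4.27 of the summed TPM (SD, n = 10) and the low class 17.5% ± 0.941 (SD, n = 7). Bc1 was 7.61 to 25.7 times as abundant as the second most abundant gene, which in most libraries was the mitochondrial gene mt-Co1.

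**Figure D1:**
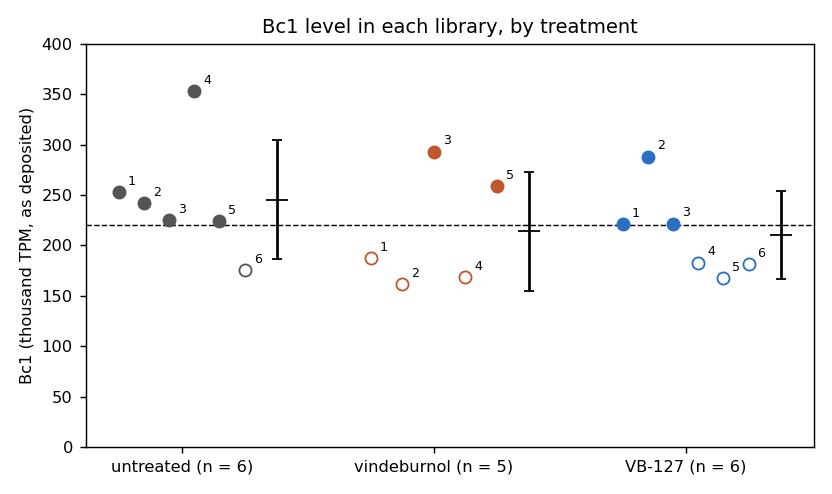
Bc1 level (TPM in units of 1000, y axis) in each library by treatment; numbers are replicates, filled points are the high class, open points the low class, and bars are mean ± SD. The dashed line at 220000 TPM passes through all 3 treatments, and untreated replicate 4 is the highest library at 352875 TPM.

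Treatment was not used to form the classes, and Bc1 did not pass a test between treatments. Untreated libraries averaged 245282 ± 58974 TPM (SD, n = 6), vindeburnol libraries 213945 ± 58851 (SD, n = 5) and VB-127 libraries 210391 ± 44136 (SD, n = 6). The difference from untreated was -31338 TPM for vindeburnol (two-sided exact permutation p = 0.411, adjusted over 3 pairs p = 0.617). It was -34891 TPM for VB-127 (exact permutation p = 0.284, adjusted p = 0.617), and vindeburnol minus VB-127 was 3554 TPM (exact permutation p = 0.918). The ranges of the 3 treatments overlapped.

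The tissue label was checked on markers of noradrenergic neurons, the main neurons of the locus coeruleus. Dbh, the enzyme that makes noradrenaline, was low in both classes: 0 to 25.3 TPM (median 1.56) in high libraries and 0 to 14.9 TPM (median 0.80) in low ones. Slc6a2, the noradrenaline transporter, reached 1 TPM in fewer than 5 of the 17 libraries. These levels of Dbh and Slc6a2, which define noradrenergic neurons, go against the tissue label, which is used below only as a label. Th, an enzyme of catecholamine synthesis that dopaminergic neurons also make, had medians of 106 and 90.3 TPM. In such bulk tissue fewer cells of a type and less RNA per cell cannot be told apart. The number of reads behind a value is unknown, because TPM does not keep it.

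The genes called higher in libraries with high Bc1 included the ribosomal protein genes Rpl41, Rpl38, Rpl6, Rps15a and Rps18 and the mitochondrial protein genes Romo1, Tomm6, Ndufb9 and Etfb. With treatment held constant, 22 of 17040 genes passed limma's test at an adjusted p under 0.05 (0.129%), 18 higher (0.106%) and 4 lower (0.0235%) in the high class. The median difference over all genes was -0.03 on the log2(TPM + 1) scale. This count depended on single libraries: it was 0 without any 1 of VB-127 replicates 2, 3, 4 and 5, vindeburnol replicates 1 and 5, or untreated replicate 6, and reached 312 without untreated replicate 3. The classes did not overlap in 35 genes (0.205%), 17 above (0.0998%) and 18 below (0.106%). At an unadjusted p under 0.05, 1236 genes were higher (7.25%) and 1748 lower (10.3%). In value alone, 7286 of 17040 genes were higher and 9754 lower.

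Romo1, a small protein of the mitochondrial inner membrane, had the smallest p. It ranged from 142 to 199 TPM (median 174) in the 10 high libraries and from 114 to 141 TPM (median 128) in the 7 low ones. The classes did not overlap, although the lowest high library and the highest low library were next to each other. The difference was 0.52 on the log2 scale (SE 0.073, 95% interval 0.37 to 0.67; limma adjusted p = 0.0215). Over 37 alternatives the adjusted p of Romo1 ranged from 0.00274 to 0.999, and it was called in 22 of them. The other 15 called genes named by the rule were called in fewer: Tbcb in 8, Etfb in 9, Pcsk1n, Stam and Jcad in 10, Ndufb9, Rpl38, Rpl6, Rps18 and Txlna in 11, and Rpl41, Rps15a, Scand1, Tomm6 and Ints6 in 12.

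Components of the cytosolic ribosome, which translates mRNA, made up the clearest group. Rpl41, a very small protein of the large subunit, ranged from 1559 to 2075 TPM (median 1861) in high libraries and from 1177 to 1578 TPM (median 1473) in low ones. Rpl41 overlapped narrowly, and its log2 difference was 0.40 (SE 0.068; limma adjusted p = 0.0483). Rpl38, also of the large subunit, held 1230.1 to 1551 TPM (median 1312) against 1071 to 1169.8 TPM (median 1093). Every high library was above every low one for Rpl38, with a log2 difference of 0.28 (SE 0.050; limma adjusted p = 0.0483). Rps15a of the small subunit held 438 to 553 TPM (median 479.6) in high and 264 to 436 TPM (median 369.6) in low libraries. Rps15a did not overlap, with a log2 difference of 0.49 (SE 0.086; limma adjusted p = 0.0483). Rps18, of the small subunit too, held 613 to 769.7 TPM against 511 to 592 TPM, again without overlap, and differed by 0.30 on the log2 scale. Rpl6 was higher by 0.26.

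Over the list of 24 cytosolic ribosomal protein genes, 3 were called higher, none lower, and all 24 were higher at an unadjusted p under 0.05. The median log2 difference of the list was 0.22, beside -0.03 over all genes tested, and it stayed above 0 under all 4 other scalings. A wider family taken by symbol, chosen after values were seen, had 81 tested members, of which 80 were higher in value and 5 called. Ribosomal protein genes have many near-identical processed pseudogenes, so the split of reads among copies is uncertain. Of 56 tested ribosomal protein pseudogenes, 47 were higher in value and 13 had an unadjusted p under 0.05.

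The summed share of the 24 ribosomal protein genes was 2.58% ± 0.199 of the total without Bc1 in high libraries (SD, n = 10) and 2.20% ± 0.115 in low ones (SD, n = 7). It ranged from 2.29 to 2.88% (median 2.55%) in the high class and from 2.03 to 2.30% (median 2.24%) in the low class. The lowest high library, untreated replicate 3, lay just below the 2 highest low libraries. Within treatment the difference was 0.402 percentage points (two-sided exact permutation within treatment p = 0.000833, the smallest these 1200 permutations can give, adjusted over 7 measures p = 0.00583). With Bc1 left in the total the difference was 0.111 percentage points and was not past the threshold (exact permutation, adjusted p = 0.0723). All 24 genes were higher in value within untreated, vindeburnol and VB-127 libraries taken alone, with medians of 0.32, 0.24 and 0.18. The untreated comparison rests on 1 low library, replicate 6.

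**Figure D2:**
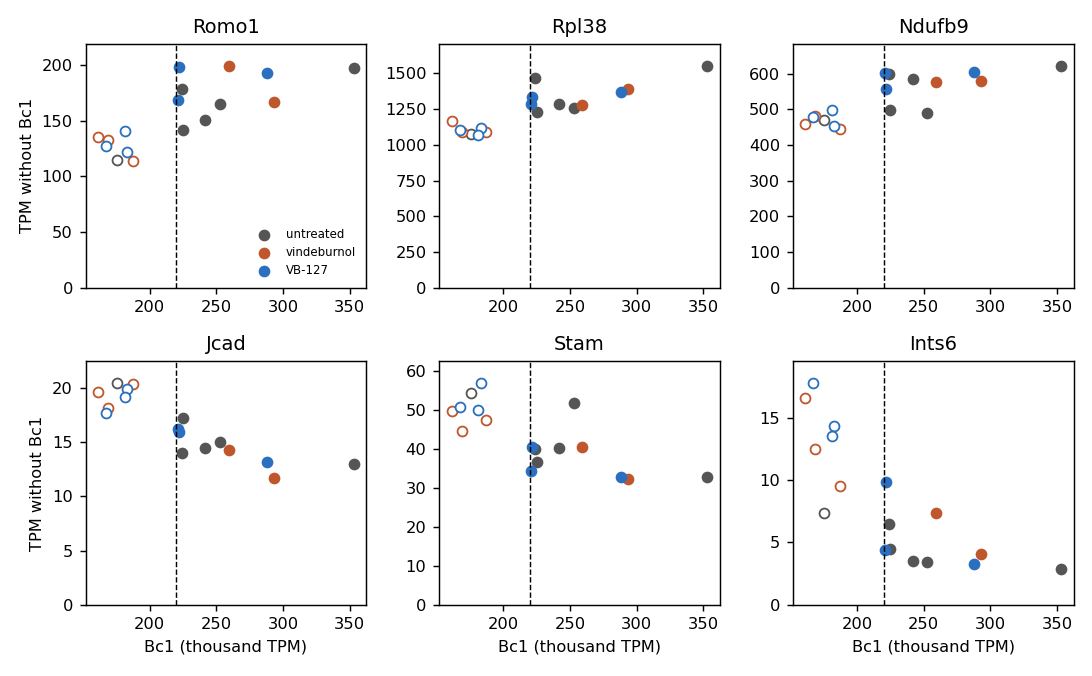
Level (TPM without Bc1, y axis) of Romo1, Rpl38, Ndufb9, Jcad, Stam and Ints6 against Bc1 (TPM in units of 1000, x axis) in each library, colored by treatment; filled points are the high class and open points the low class. Romo1 and Rpl38 are higher and Jcad lower in all 10 filled points than in any of the 7 open points, while Ndufb9, Stam and Ints6 overlap.

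Of 22 nuclear-encoded genes of the respiratory chain and ATP synthase, which make ATP in mitochondria, only Ndufb9 was called higher. Ndufb9, a subunit of complex I, held 488 to 621 TPM (median 582) in high and 445 to 499 TPM (median 469) in low libraries. Its ranges met at their ends, and the log2 difference of Ndufb9 was 0.29 (SE 0.055; limma adjusted p = 0.0483). Uqcrh, a hinge protein of complex III, held 782 to 960.5 TPM against 719 to 766 TPM. Uqcrh did not overlap between classes but missed the threshold, with a log2 difference of 0.20 (limma adjusted p = 0.0588). In the whole list 13 genes were higher at an unadjusted p under 0.05 and 21 were higher in value, with a median of 0.16; with Bc1 left in the total, which moved the median of all genes to -0.17, 11 of 22 were higher in value and their median was 0.00. Etfb, which passes electrons from fatty acid breakdown into the chain, was outside the list and was called higher by 0.38. Tomm6, a small subunit of the import channel of the outer membrane, was called higher by 0.28.

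The 15 genes encoded in the mitochondrial genome were not higher with the nuclear ones. None was called by limma, 7 were lower at an unadjusted p under 0.05, and the median was -0.17. mt-Atp8, a subunit of ATP synthase, held 10741 to 20138 TPM (median 13749) in high and 13955 to 22360 TPM (median 18072) in low libraries. These ranges of mt-Atp8 overlapped widely, and its log2 difference was -0.44 (limma adjusted p = 0.103). The summed share of all genes with a symbol starting with mt-, which are more than these 15, was also computed. It was 14.0% ± 1.46 in high libraries (SD, n = 10) and 15.0% ± 1.71 in low ones (SD, n = 7). The difference within treatment was -1.64 percentage points (exact permutation p = 0.0217, adjusted p = 0.0506), just outside the threshold. It passed when vindeburnol replicate 3 (exact permutation, adjusted p = 0.0389), vindeburnol replicate 4 (0.00648), untreated replicate 1 (0.0303) or untreated replicate 3 (0.049) was left out, and with Bc1 left in the total (0.0117).

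Other called genes that were higher had varied roles. Tbcb, a tubulin folding cofactor, was higher by 0.33 on the log2 scale, and Pcsk1n, which encodes the neuroendocrine protein proSAAS, by 0.27. Scand1, a SCAN domain protein, was higher by 0.47. Eef1b2, an exchange factor of translation elongation, was higher by 0.24 and did not overlap; like the following gene it was named after its values were seen. The predicted gene Gm13841, a processed pseudogene with a mean of 0.89 TPM, was listed at 0 in all 7 low libraries and at 0.67 to 3.11 TPM in the high ones. It passed the filter of 1 TPM only through the high class. Its call and its lack of overlap are therefore no evidence of a difference, though it is counted among the 18 genes called higher.

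The 4 genes called lower were Ints6, Txlna, Stam and Jcad. Ints6, a subunit of the Integrator complex that processes nuclear RNAs, held 2.88 to 9.85 TPM (median 4.21) in high and 7.35 to 17.7 TPM (median 13.5) in low libraries. VB-127 replicate 3 and vindeburnol replicate 5, both high, lay within the low range of Ints6, and its log2 difference was -1.11 (SE 0.205; limma adjusted p = 0.0483). Jcad, a protein of endothelial cell junctions, held 11.7 to 17.2 TPM (median 14.4) against 17.7 to 20.4 TPM (median 19.6). Jcad did not overlap, with a log2 difference of -0.42 (SE 0.081; limma adjusted p = 0.0488). Stam, which sorts ubiquitinated receptors at endosomes, held 32.3 to 51.8 TPM against 44.6 to 56.8 TPM, and differed by -0.46. Txlna, a syntaxin-binding protein, differed by -0.51. The next genes by p, the ubiquitin ligase Arih1 at -0.44 (limma adjusted p = 0.0546) and the lysosomal protease Ctsc at -0.55 (limma adjusted p = 0.0564), were not past the threshold.

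Most genes called higher had transcripts shorter than the median of 2016 bases over all genes tested, and most called lower had longer ones. The median transcript length was 688 bases over the 18 genes called higher and 4830 bases over the 4 called lower, where a gene's length is the median of its GENCODE M21 transcripts. Among Romo1, Rpl41, Rpl38 and Ndufb9 it was 464.5, 526.5, 367.5 and 704 bases, and for Ints6 and Jcad it was 7938 and 5678.5 bases. Among the genes called higher the exceptions were Pcsk1n at 2193 bases and Cst6, a cystatin, at 2191.5 bases. Txlna was the exception among those called lower, with a median of 890 bases, though its longest transcript has 4847 bases.

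The same order held over the 13861 protein-coding genes tested. With Bc1 left in the total the median of genes under 1000 bases was -0.08 and that of genes of 4000 bases or more -0.29, so the sign for short genes depends on that scaling and the order does not. The median log2 difference was 0.08 for the 224 genes under 500 bases, 0.07 for 2248 genes of 500 to 1000 bases and 0.02 for 3704 genes of 1000 to 2000 bases. It was -0.06 for 5135 genes of 2000 to 4000 bases, -0.15 for 2278 genes of 4000 to 8000 bases and -0.22 for 272 genes of 8000 bases or more. In the longest of these bins 9.93% of genes were higher in value and 99 of 272 were lower at an unadjusted p under 0.05, against 0 higher. Without the ribosomal protein and respiratory chain genes the 6 medians were 0.05, 0.06, 0.02, -0.06, -0.15 and -0.22. Across genes, which share the same libraries and are not independent, Spearman's rho of the difference with median length was -0.414. It was -0.553 with the longest transcript and 0.361 with GC content.

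**Figure D3:**
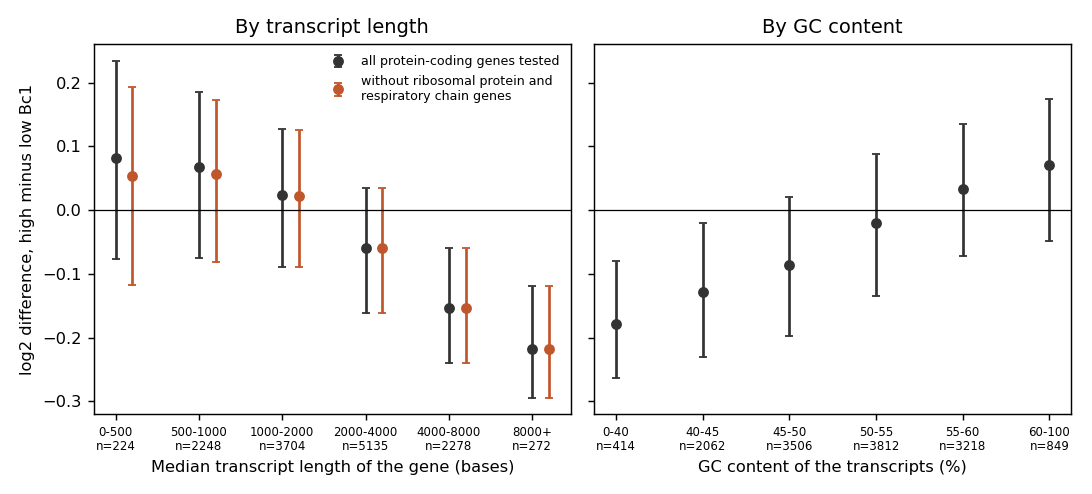
Median log2 difference, high minus low Bc1, of protein-coding genes by transcript length in bases (left) and by GC content in % (right), with bars from the lower to the upper quartile; orange points leave out ribosomal protein and respiratory chain genes. The medians go down from 0.08 in the shortest bin to -0.22 in the longest, and up from -0.18 to 0.07 with GC content.

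A length score was computed for each library as the mean log2 level of 2472 protein-coding genes under 1000 bases minus that of 2550 genes of 4000 bases or more. It ranged from 1.09 to 1.48 (median 1.26) in high libraries and from 1.03 to 1.098 (median 1.07) in low ones. Only vindeburnol replicate 4, at 1.098, exceeded a high library, untreated replicate 3 at 1.095, and within each treatment the classes did not overlap. The difference within treatment was 0.21 (exact permutation p = 0.00167, adjusted over 10 measures p = 0.00556), for a measure chosen after the data were seen. The mean log2 level of the long genes was 3.52 to 3.88 in high and 3.75 to 3.94 in low libraries, and that of the short genes 4.92 to 5.03 and 4.85 to 4.99. Untreated replicate 4, the library with most Bc1, had the lowest mean of the long genes.

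With this score as a further term, the count of genes called by limma was 0 of 17040, with 805 at an unadjusted p under 0.05. In that fit 18 of 24 ribosomal protein genes were higher in value, with a median of 0.05 beside 0.02 over all genes. The 22 respiratory chain genes then had a median of 0.02 and the 15 mitochondrially encoded genes 0.07. The score was made from the same libraries and from many of the genes tested. Within each treatment it did not overlap between the classes, so this fit can hardly separate class from score. Fewer calls are likely for that reason alone, and whether length accounts for the differences was not tested.

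**Figure D4:**
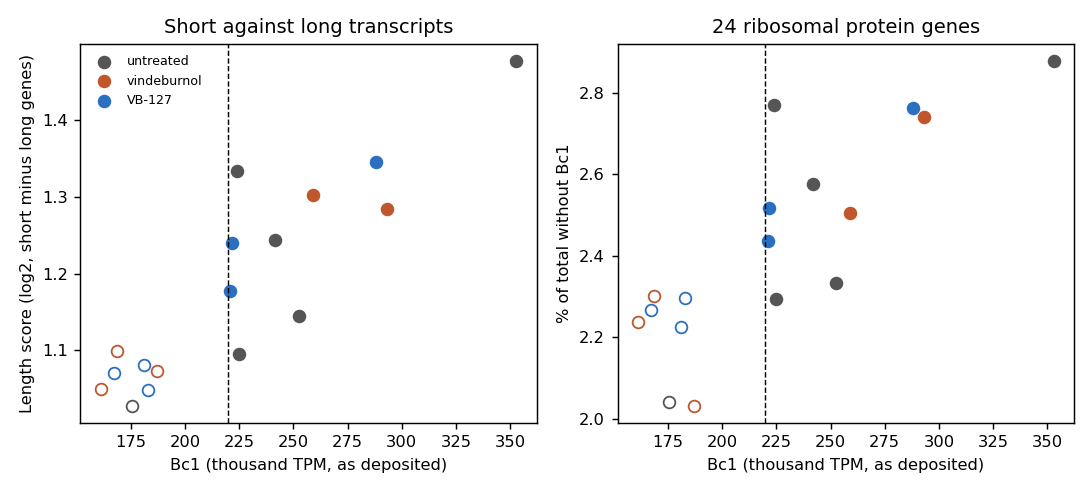
Length score (log2, left) and summed share of 24 ribosomal protein genes (% of the total without Bc1, right) against Bc1 (TPM in units of 1000) in each library, colored by treatment; filled points are the high class. The 7 open points lie at 1.03 to 1.098 and 2.03 to 2.30%, and untreated replicate 4 is highest in both at 1.48 and 2.88%.

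Taking Bc1 as a continuous level gave more calls, and their number depended on single libraries. With log2 Bc1 in place of the classes, limma called 1255 of 17040 genes (7.37%), 427 rising with Bc1 (2.51%) and 828 falling (4.86%), among them all 22 called by class. Without untreated replicate 4, the library with most Bc1, the count was 1, without VB-127 replicate 2 it was 38 and without untreated replicate 6 it was 362. Without vindeburnol replicate 4 it was 1970, and without VB-127 replicates 4, 5 or 6 it was 813, 812 and 789. Of the ribosomal protein list 20 of 24 rose with Bc1, and of the respiratory chain list 9 of 22. The median length of the 427 rising genes was 826.5 bases and that of the 828 falling genes 3912 bases.

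Of 20 known partners of Bc1 and dendritic translation regulators, none was called by limma. Since only 0.129% of all genes were called by class, this count says little about the list. At an unadjusted p under 0.05, 7 of 20 were lower, beside 10.3% of all genes. The list had a median of -0.12, beside -0.03 over all genes, and a median length of 2883 bases. Cyfip1, which joins the fragile X protein to the cap-binding factor, held 27.7 to 37.2 TPM (median 32.1) in high and 34.5 to 39.6 TPM (median 38.1) in low libraries. The classes overlapped, and Cyfip1 differed by -0.23 (limma adjusted p = 0.102). Its paralog Cyfip2 differed by -0.28, and the scaffold of the initiation complex, Eif4g1, by -0.21. Fmr1, the fragile X protein itself, held 12.2 to 22.1 TPM against 11.4 to 23.4 TPM, with a difference of -0.22 (limma adjusted p = 0.453). Pabpc1 differed by -0.12 and the cap-binding Eif4e by -0.01, both not called. With continuous Bc1, 5 of 20 members were called as falling, beside 4.86% of all genes: Cpeb1, Cyfip1, Cyfip2, Eif4ebp2 and Pabpc1. That fit called 1 gene in all without untreated replicate 4 and 38 without VB-127 replicate 2. With the length score as a further term the median of the list was 0.03, with 14 of 20 members higher in value.

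RNA polymerase III, which makes Bc1, and its factors were near the median of all genes. None of the 25 was called by limma, 3 were higher and 2 lower at an unadjusted p under 0.05, and the median was -0.03. Maf1, a repressor of the enzyme, held 75.7 to 112 TPM (median 88.7) in high and 68.6 to 83.1 TPM (median 75.3) in low libraries. Maf1 overlapped and differed by 0.26 (limma adjusted p = 0.103). Polr3a, the largest subunit, differed by -0.09. The other short noncoding RNAs, 12 of 21 tested, had none called by limma, none at an unadjusted p under 0.05 and a median of -0.02.

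The pan-neuronal list had a median near that of all genes, while single members lay to both sides of it. The 20 pan-neuronal genes had a median of 0.00 to 2 decimals, 3 higher and 4 lower at an unadjusted p under 0.05 and none called by limma. Map1b, a long microtubule-associated protein mRNA, held 127.1 to 188 TPM (median 147) in high and 155 to 233 TPM (median 181) in low libraries. Map1b overlapped and differed by -0.35 (limma adjusted p = 0.0665). Syt1, the calcium sensor of synaptic vesicles, differed by -0.28, and Stmn3, a stathmin with a transcript of 1136 bases, by 0.20. The 20 mRNAs known from dendrites had a median of -0.03, none called by limma, and 1 higher and 2 lower at an unadjusted p under 0.05. Map2, a dendritic microtubule protein, differed by -0.31 (limma adjusted p = 0.124). With the length score as a further term the dendritic list had a median of 0.23, with 18 of 20 higher in value, and the pan-neuronal list -0.02.

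Some lists for single kinds of neuron lay further from the median of all genes, and none of these lists had a gene called by limma. The noradrenergic and dopaminergic lists were near it, with medians of -0.05 and -0.03. Glutamate neuron genes had a median of -0.25 with 6 of 7 lower in value. The medians were -0.16 for 5 cholinergic, -0.13 for 9 serotonergic and -0.11 for 8 GABA and glycine neuron genes. Neuropeptide genes of the Edinger-Westphal nucleus and brainstem had a median of 0.15 with 12 of 14 higher in value, and 0.00 with 7 of 14 when Bc1 was left in the total. With the length score as a further term the glutamate list had a median of 0.07 and the GABA and glycine list 0.03. Other lists moved further below the median of all genes, which was 0.02 in that fit. The cholinergic median was then -0.41, the serotonergic -0.28, and the noradrenergic and dopaminergic medians were both -0.29.

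**Figure D5:**
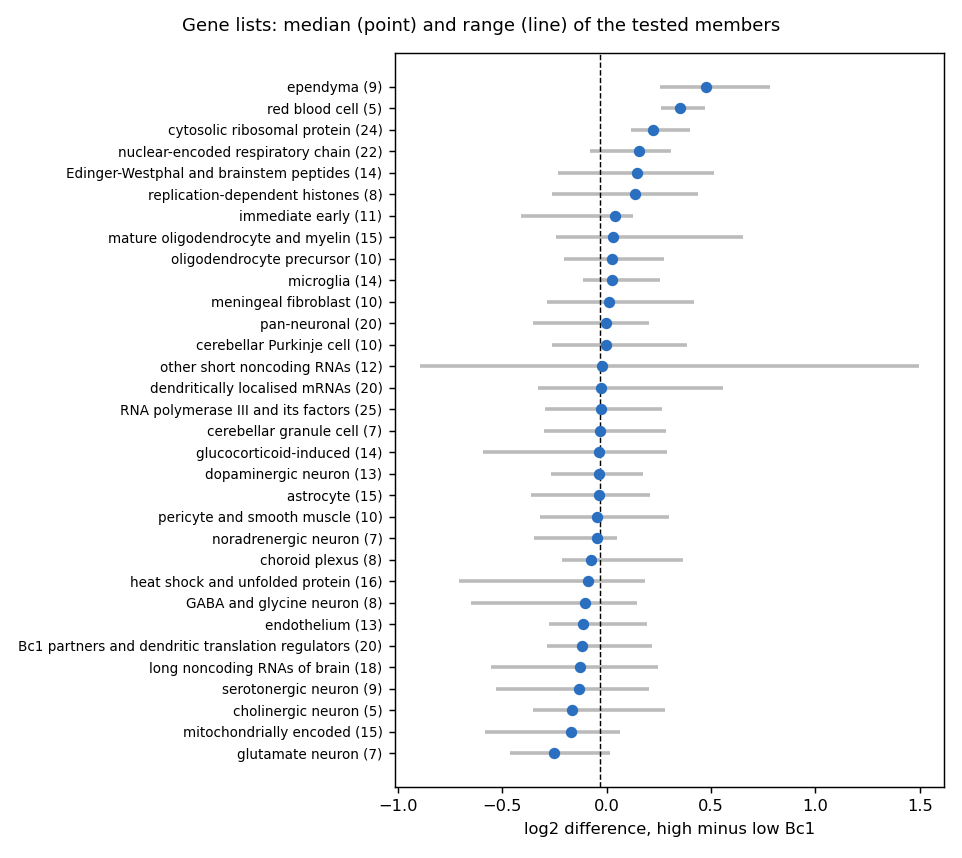
Median (point) and range (line) of the log2 difference, high minus low Bc1, over the tested members of 32 gene lists, with the number tested in parentheses; the dashed line is the median of all genes, -0.03. The ribosomal protein, ependyma and red blood cell lists lie wholly above the line, and most cell type lists span it.

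Markers of other cell types were mostly near the median of all genes, with none called by limma in any of these lists. Endothelial genes had a median of -0.11, with 9 of 13 lower in value, and choroid plexus genes -0.08, with 6 of 8 lower. Over all genes tested 9754 of 17040 were lower in value. The endothelial median was -0.20 in untreated, 0.01 in vindeburnol and -0.14 in VB-127 libraries. Myelin genes had a median of 0.03, microglial genes 0.02 and astrocyte genes -0.04, and with median-ratio scaling the astrocyte median was 0.00; the myelin and microglia medians were below 0 with Bc1 left in the total. All 9 tested genes of ependyma, the ciliated lining of the ventricles, were higher in value, with a median of 0.48 and 3 at an unadjusted p under 0.05. Their summed level was 57.3 to 106 TPM (median 90.3) in high and 38.2 to 96.3 TPM (median 58.3) in low libraries. Mia differed by 0.78 and Foxj1, the regulator of motile cilia, by 0.33. The ependyma median was 1.00 in untreated, 0.77 in vindeburnol and -0.03 in VB-127 libraries, a contrast that was not tested. With the length score as a further term the ependyma median was 0.02, beside 0.02 over all genes, with 6 of 9 higher in value. All 5 red blood cell genes were higher in value, with a median of 0.35. Their median was 0.69 in untreated, 0.73 in vindeburnol and -0.05 in VB-127 libraries, where 1 of 5 was higher in value. The untreated values rest on 1 low library. With the length score as a further term the red blood cell median was 0.05, with 3 of 5 higher in value. The 2 alpha-globin copies are near-identical and their split is uncertain. The part of these cells in the ribosomal and respiratory differences was not tested.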

How the data were processed

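The deposited values are TPM per gene, made by the authors with STAR and Salmon on GRCm39 (mm39), per the submitters' processing notes; 78298 gene IDs are listed per library. The library kit was directional, per the labels' protocols; the counting's use of strand was not stated. Classes and gene lists were chosen with earlier results of these data known.

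Bc1 was removed and each library rescaled to 1000000. Genes with 1 TPM in at least 5 libraries were fitted as log2(TPM + 1), pseudocount 1, in limma 3.58.1 (R 4.3.3; trend and robust moderation) with treatment and Bc1 class. Tests were two-sided with Benjamini-Hochberg adjustment over 17040 genes. Differences are on that scale and understate low genes. Measures per library were compared by exact permutation within treatment. The procedure was tested on simulated data. Lengths and GC came from GENCODE M21 by gene ID (51498 matched; 93.7% of genes tested), a GRCm38 annotation used for names, lengths and the Bc1 sequence only.

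Genes named were Bc1, up to 12 called genes per direction with the smallest p, a mean of at least 2 TPM and no predicted name, filled up to 6 by p, and up to 4 members per list with the smallest p. Others are named as list members or tissue markers, after their values were seen. Alternatives changed scaling, filter, pseudocount, threshold, covariates, moderation and libraries.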

Additional observations from a re-analysis of the deposited data

Results flagged for a closer look

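Of 58 sets of values checked for a sample far from the others, 5 had one; chance gives about 1 in 20. Vindeburnol replicate 4 stood apart in 3 of them. It held 2.667% of its total in Rn18s-rs5, a ribosomal RNA gene, while the next low library held 0.236%. It had 1.77% in noncoding genes other than Bc1, the next low library 1.28%. It had the lowest share of any low library in genes with transcripts under 1000 bases, 32.8%, the next 34.5%. Without this library 1 gene was called by class. Untreated replicate 4, the library with most Bc1, had the highest share in genes under 1000 bases, 39.3%, the next high library 37.3%. Stam stood at 51.8 TPM in untreated replicate 1, while the next high library had 40.4 TPM; without that library 125 genes were called.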

How the results depend on the processing

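Of 17040 genes, limma called 22 by class and 21 with a pseudocount of 0.1. Calls numbered 1 with a pseudocount of 5, 137 with a filter of 5 TPM, 66 with median-ratio scaling, 1 with quantile normalization, 12 with mitochondrial genes removed, 87 without treatment, 693 with library weights, 2 with myelin and monoamine neuron covariates and 1255 with continuous Bc1. Within a treatment, leaving out untreated with its 1 low library, they numbered 2 (vindeburnol) and 5 (VB-127), none of them among the 22. They were 0 with no filter (3745 at an unadjusted p under 0.05), with a threshold of 240000 TPM (2773), without trend and robust moderation (2884), with the length score (805) and without both untreated replicate 4 and vindeburnol replicate 5 (2808); the last 2 settings were added after seeing the data. With Bc1 left in the total 1347 were called, 1.11% of them higher against 81.8%, and the median of all genes was -0.17. Of genes at an unadjusted p under 0.05, 41.4% were higher, 56.9% with median-ratio scaling and 31.3% with mitochondrial genes removed. Leaving out 1 library gave 0 to 312 calls (2148 to 3333 at an unadjusted p under 0.05), and 1 to 1970 with continuous Bc1.

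The ribosomal protein median stayed above 0 in 38 settings (0.05 to 0.32), and the respiratory chain median was 0.00 with Bc1 left in. The ribosomal share difference was 0.363 to 0.436 percentage points without 1 library, and 0.111 with Bc1 left in (exact permutation, adjusted p = 0.0723). The share of the 10 highest genes differed by -1.71 points, -1.18 at 240000 TPM, -1.24 without regard to treatment, 5.98 with Bc1 left in, since Bc1 is then one of them, and -1.92 to -1.32 without 1 library. The mitochondrial share differed by -2.48 with Bc1 left in and by -1.95 to -1.13 without 1 library. The noncoding share differed by -0.112, by -0.185 at 240000 TPM and by -0.183 with Bc1 left in. The count of genes at 1 TPM differed by -115, by -284 at 240000 TPM and by -441 with Bc1 left in.

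With the replicate number as a block 27 genes were called, 7 of them among the 22. The numbers did not pair the libraries: deviations of 16 same-numbered pairs correlated at -0.176 to 0.0955, none over 0.1. Depth is unknown, so the counting error of low genes could not be given.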

Other observations

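Of the 18 genes whose 10 high libraries all lay below the 7 low ones, 3 were Ago2, the slicing protein of microRNA complexes, Atp2a2, the calcium pump of the endoplasmic reticulum, and Cbl, a ubiquitin ligase; these 3 were picked after their values were seen. The 17 above included the ribosomal protein genes Rpl26, Rpl35 and Rps7 and the complex I gene Ndufb3.

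GC content and length were partly separate. Among protein-coding genes of 45 to 50% GC the medians from the shortest to the longest length bin were -0.04, 0.02, -0.03, -0.09, -0.18 and -0.23. Among genes of 1000 to 2000 bases the medians ran from -0.13 at the lowest GC content to 0.11 at the highest.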
